A study of Mus musculus with 2 samples.

Results

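NRF2, encoded by Nfe2l2, is the transcription factor that cells use against oxidants and reactive chemicals, and 10 genes of this system were followed here in dysplastic mouse stomach organoids kept with DMSO or with pyrvinium. The genes were taken by symbol from a list chosen with earlier results of these data known. They were Nfe2l2 itself, its inhibitor gene Keap1, and the target genes Nqo1, Hmox1, Txnrd1, Srxn1, Osgin1, Abcc1, Gsr and Prdx1. All 10 were found among the 32227 genes of the count matrices, each under 1 gene identifier, and all 10 had at least 20 counts over both libraries. The organoids were of the Meta4 line, derived from the stomach corpus, and carried Mist1-CreERT2Tg/+, with dysplasia induced, in both groups. This transgene is a tamoxifen-inducible Cre driven by Mist1, and the controls carry it and the induced dysplasia too. The DMSO group received the solvent and the Pyr group pyrvinium, an anthelmintic drug, each for 1 day. With 1 single-cell RNA library per group and 1 organoid line, no test was possible and no difference has a replicate check. "Higher" and "lower" compare these libraries, and intervals are 95% and cover counting error only.

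As background, KEAP1 holds NRF2 on a ubiquitin ligase built on CUL3, so that NRF2 is degraded in unstressed cells. Oxidants and electrophiles modify KEAP1, NRF2 then escapes degradation, pairs with small MAF proteins and binds antioxidant response elements in its target genes. BACH1 competes for the same elements, and Hmox1 is a well known target of its repression. NRF2 is controlled mainly as a protein, so the Nfe2l2 transcript need not follow its activity, and neither protein was measured here.

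The promoter letters are shown because several members share motif matches that lie close to their start sites. RefSeq promoters on GRCm38 (250 bases before to 50 after each start) were at hand for 7 of the 10 members with 9 starts in all, and were not for Hmox1, Abcc1 and Gsr. They were searched on both strands for TGACNNNGC, the core of the antioxidant response element, and for TGAGTCA, the AP-1 site, which can lie inside such an element. TGACNNNGC was found at a start of 4 of these 7 members, and in 12.4% of all 32851 promoters (14.0% of 27025 genes). TGAGTCA was found in Srxn1, Osgin1 and Prdx1 of these 7 members, and in 5.20% of all promoters (5.95% of 27025 genes). The match of Srxn1 to TGACNNNGC lay after the start and is not printed. No match to either motif was found in the windows of Nqo1 and Keap1, which says only that these letters are not in these windows. As a check, bases just after each start were looked for in the annotated transcripts of the gene. They were found for every start but that of Nfe2l2, so the distance given for its match is less certain. Below, the sequence is given on the gene's strand with the match in capitals.
Nfe2l2, TGACNNNGC 240 to 232 bases before the start, chr2:75704883-75704913, minus strand: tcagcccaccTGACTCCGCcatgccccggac
Txnrd1, TGACNNNGC in antisense 92 to 84 bases before 1 of its 3 starts, chr10:82859102-82859134, plus strand: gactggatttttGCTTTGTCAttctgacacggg
Prdx1, TGACNNNGC in antisense 133 to 125 bases before the start, chr4:116685454-116685486, plus strand: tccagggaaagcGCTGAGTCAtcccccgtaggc
Srxn1, TGAGTCA 102 to 96 bases before the start, chr2:152105410-152105440, plus strand: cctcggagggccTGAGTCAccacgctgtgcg
Srxn1, TGAGTCA 45 to 39 bases before the start, chr2:152105467-152105497, plus strand: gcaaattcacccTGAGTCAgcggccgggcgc
Osgin1, TGAGTCA in antisense 97 to 91 bases before the start, chr8:119437038-119437068, plus strand: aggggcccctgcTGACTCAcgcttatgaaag
The Prdx1 match shown holds both motifs, with TGAGTCA inside the antisense TGACNNNGC, and a further TGAGTCA lies 237 to 231 bases before its start. These matches are descriptions of the letters and not bound sites.

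Barcodes were kept as cells from 9320 counts upwards for DMSO and from 13100 upwards for Pyr, which gave 1602 and 854 cells. They had a median of 18593 counts per cell with DMSO and 31517 with pyrvinium, and 39980497 and 37046673 counts in all. The libraries shared 0 kept barcodes, and mitochondrial counts were 2.57% and 1.63% of the total. Levels are counts per 1000000 counts (CPM) of a library's summed cells, so a cell with more RNA at the same CPM holds more of a transcript. The epithelial label was borne out by all 8 listed epithelial markers, such as Epcam at 344 and 377 CPM, whose summed level was 8557 CPM in DMSO cells and 5690 CPM in pyrvinium cells. Fibroblast markers summed to 1.03 and 0.81 CPM over 6 genes. The 5 endothelial markers summed to 44.6 and 59.6 CPM, nearly all from Cdh5 at 41.7 and 56.6, and the 7 immune markers to 54.2 and 19.5 CPM, nearly all from Cd14 at 53.6 and 18.4, while Ptprc was at 0.35 and 0.76. The part of these markers in the member levels was not tested.

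Over all cells, the 10 genes did not move as a block. Nqo1 was 1.91-fold higher with pyrvinium and Keap1 1.64-fold lower, and the other 8 members differed by less than 1.5-fold. A gene was counted as higher or lower when it differed by at least 1.5-fold with its whole interval on that side of 1. By this rule 1 of 10 members was higher, against 7.57% of the 15586 genes with at least 20 counts, and 1 of 10 was lower, against 15.5% of those genes. These are 1180 higher and 2416 lower genes, a split that was 1535 and 1969 when scaled without mitochondrial and ribosomal protein genes and 1558 and 1952 when scaled by the median of ratios. With 1 member on each side, neither share stands far from its background. The median log2 ratio of pyrvinium over DMSO was 0.11 for the members and -0.08 for all tested genes.

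The regulators come first. Nfe2l2 (ENSMUSG00000015839) was at 75.1 CPM (interval 72.5 to 77.9) in DMSO cells and 66.3 CPM (63.7 to 68.9) in pyrvinium cells, a log2 ratio of -0.18 (-0.26 to -0.10). The intervals of its levels did not overlap, but the difference stayed under 1.5-fold. Keap1 (ENSMUSG00000003308) was at 23.4 CPM (22.0 to 24.99) in DMSO cells and 14.3 CPM (13.1 to 15.5) in pyrvinium cells, a log2 ratio of -0.71 (-0.87 to -0.56). Of all tested genes, 13.6% had a lower ratio than Keap1.

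Nqo1 (ENSMUSG00000003849) encodes the quinone reductase that is the most used readout of NRF2. It was at 68.3 CPM (65.7 to 70.9) in DMSO cells and 130.1 CPM (126 to 134) in pyrvinium cells, a log2 ratio of 0.93 (0.86 to 1.00), and 95.6% of tested genes had a lower ratio. Hmox1 (ENSMUSG00000005413), which encodes the haem-degrading oxygenase HO-1, was at 51.7 CPM (49.5 to 54.0) and 45.9 CPM (43.8 to 48.2), a log2 ratio of -0.17. The sums were thus close, while the clusters described further on differed.

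In the thioredoxin and peroxiredoxin branch, Srxn1 and Prdx1 lay close in the libraries, and Txnrd1 was higher with pyrvinium, with separate intervals. Txnrd1 (ENSMUSG00000020250), the gene of cytosolic thioredoxin reductase, was at 58.2 CPM (55.9 to 60.6) in DMSO cells and 73.8 CPM (71.1 to 76.6) in pyrvinium cells, 1.27-fold higher. Srxn1 (ENSMUSG00000032802), the gene of sulfiredoxin, which repairs over-oxidised peroxiredoxins, was at 7.90 CPM (7.06 to 8.82) and 8.61 CPM (7.69 to 9.61), with overlapping intervals. The peroxiredoxin gene Prdx1 (ENSMUSG00000028691) was at 2369 CPM (2354 to 2384) and 2357 CPM (2341 to 2372), a log2 ratio of -0.01 (-0.02 to 0.01). It had the most counts of the members, 94718 and 87304, and the narrowest interval. Reads from processed pseudogenes of Prdx1 could be counted with it or lost, which the sources used here do not settle.

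Of the remaining members, Gsr (ENSMUSG00000031584), the gene of glutathione reductase, was at 58.1 CPM (55.8 to 60.5) in DMSO cells and 61.9 CPM (59.4 to 64.5) in pyrvinium cells. Osgin1 (ENSMUSG00000074063), an oxidative stress gene tied to growth arrest, was at 19.1 CPM (17.8 to 20.5) and 26.7 CPM (25.03 to 28.4), 1.40-fold higher. Abcc1 (ENSMUSG00000023088), the gene of the export pump MRP1, which carries glutathione conjugates, was at 15.2 CPM (14.0 to 16.4) and 21.5 CPM (20.05 to 23.1), 1.42-fold higher. Osgin1 and Abcc1 thus had separate intervals in the libraries but stayed just inside the 1.5-fold limit, as the plot of levels in the libraries shows. Abcc1 passed it when scaled by the median of ratios (log2 ratio 0.59) and Osgin1 after taking off an ambient profile from barcodes of 10 to 100 counts (0.59).

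**Figure D1:**
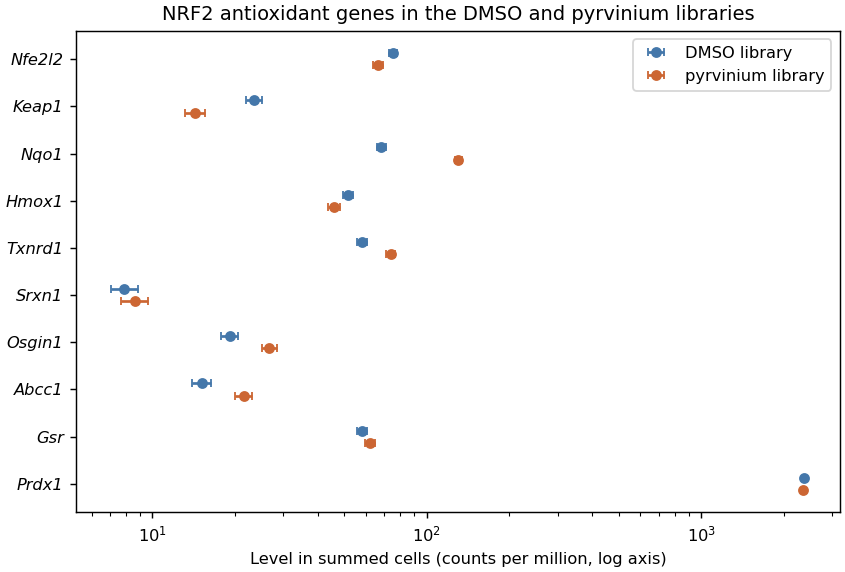
Level of each of the 10 genes (vertical axis) in the summed cells of the DMSO library (blue) and the pyrvinium library (orange), in CPM on a log axis; bars are 95% Poisson intervals, often smaller than the point. Nqo1 lies at 68.3 and 130.1 CPM and Keap1 at 23.4 and 14.3 CPM, while Prdx1, Gsr and Srxn1 lie close together in the libraries.

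In single cells, a larger share of pyrvinium cells than of DMSO cells had a count of Nqo1. With each cell thinned at random to 5000 counts, the share with Nqo1 was 27.9% for DMSO (25.7 to 30.2) and 45.8% for pyrvinium (42.4 to 49.2), and without thinning in 69.1% and 93.8%. The most counts in a thinned cell were 6 in both libraries. Keap1 was counted in 11.6% (10.1 to 13.3) and 7.73% (6.03 to 9.73) of thinned cells, with separate intervals, and in 39.8% and 41.8% of unthinned cells, which are deeper with pyrvinium. Nfe2l2 was counted in 32.0% (29.7 to 34.4) and 25.8% (22.9 to 28.8).

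The share of thinned cells with Txnrd1 was 24.9% (22.8 to 27.1) for DMSO and 31.1% (28.1 to 34.4) for pyrvinium. Hmox1 had shares of 16.0% (14.2 to 17.9) and 17.3% (14.8 to 20.04). For Abcc1 the shares were 7.18% (5.96 to 8.55) and 10.3% (8.35 to 12.5), for Osgin1 8.18% (6.88 to 9.63) and 11.1% (9.09 to 13.4), for Gsr 24.3% and 26.2% and for Srxn1 3.995% and 4.68%. The intervals of the libraries overlapped for Hmox1, Abcc1, Osgin1, Gsr and Srxn1, and were separate for Txnrd1. Such overlap does not show that the shares were equal, and the differences in share were not tested. Unthinned, the shares with DMSO and with pyrvinium were 72.1% and 80.9% for Nfe2l2, 63.8% and 83.4% for Txnrd1, 27.8% and 50.6% for Abcc1, 31.7% and 53.4% for Osgin1, 64.7% and 80.1% for Gsr, 38.2% and 56.1% for Hmox1 and 16.0% and 25.9% for Srxn1. Prdx1 was counted in 1602 of 1602 thinned DMSO cells and 853 of 854 pyrvinium cells, with a median of 11 counts in each library and quartiles of 8 and 15 with DMSO and 8 and 14 with pyrvinium.

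No cell type that lacks these genes was identified in the organoids to serve as a background, so 2 other values stand in for it. If 10% of the counts of a cell were free RNA with the makeup of barcodes with 100 to 500 counts, free RNA alone would give Nqo1 a share of 4.47% with DMSO and 7.04% with pyrvinium, and Hmox1 2.91% and 2.88%. The real share of free RNA was not measured. The lowest share of Nqo1 in a cluster of at least 30 cells was 22.6% in the DMSO library and 42.0% in the Pyr library, both in cluster 3. For Prdx1, free RNA at 10% would give 61.8% and 65.3%, so its share of cells is no measure of expression.

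**Figure D2:**
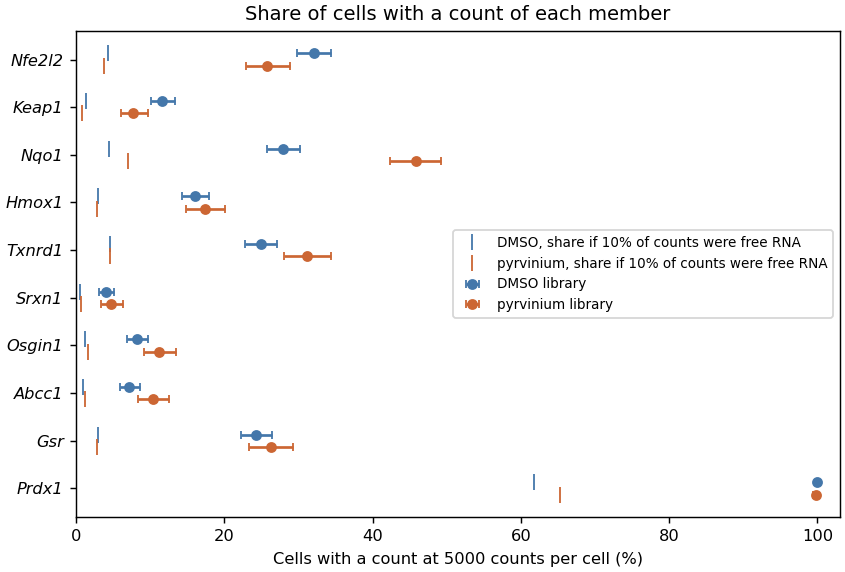
Percent of cells with at least 1 count of each gene (horizontal axis) after thinning each cell to 5000 counts, for DMSO (blue) and pyrvinium (orange); bars are exact 95% binomial intervals, and vertical ticks mark the share that free RNA at 10% of counts would give alone. Nqo1 goes from 27.9% to 45.8%, Hmox1 lies at 16.0% and 17.3%, and every gene lies to the right of its ticks, with Srxn1 lowest at 3.995% and 4.68%.

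The cells fell into 6 clusters, of which clusters 3, 4 and 6 held at least 30 cells of each library. Cluster 1 held 302 DMSO cells and 0 pyrvinium cells, and its leading genes included Ndrg1, Ero1a and Bnip3, each known to be induced by hypoxia. Cluster 2 (218 and 6 cells) was led by Ifitm1, Mmp7 and Itln1. Cluster 3 (611 and 112) was led by the mitosis genes Cdc20, Birc5 and Ccnb1, and cluster 4 (336 and 35) by Spink4, Fosb and Ccnd2. Cluster 5 (4 and 258) was led by Atf5, Hsd17b13 and Cldn2, and cluster 6 (131 and 443) by Dusp4, Gdf15 and Ddit3. These leading genes were ranked on the cells of both libraries together. Ddit3 in cluster 6 was at 467 CPM in pyrvinium cells but 24.7 CPM in DMSO cells, below the 39.1 CPM of all DMSO cells. Genes were scaled within each library before clustering, so cells of a shared cluster need not be alike between libraries. Hmox1 and Osgin1 were among the 2000 variable genes used for clustering and the other 8 members were not.

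Hmox1 in the DMSO library came mostly from cluster 1. Its level there was 214 CPM (203 to 225), against 12.99 CPM (9.81 to 16.9) in cluster 2, 15.4 CPM (13.6 to 17.4) in cluster 3, 15.8 CPM (13.2 to 18.7) in cluster 4 and 44.9 CPM (38.5 to 52.0) in cluster 6. Cluster 1 held 18.9% of DMSO cells and 70.0% of their Hmox1 counts. It was counted in 46.4% of thinned cells of cluster 1, and in 4.59% to 20.6% of those of the other DMSO clusters of at least 30 cells. Of the 16 thinned DMSO cells with at least 5 Hmox1 counts, 15 were in cluster 1, and the highest had 18.

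In the Pyr library, Hmox1 was at 20.1 CPM (16.2 to 24.7) in cluster 3, 32.6 CPM (23.0 to 45.0) in cluster 4, 28.2 CPM (25.3 to 31.5) in cluster 5 and 62.9 CPM (59.5 to 66.6) in cluster 6. Where a cluster held both libraries the direction was the opposite of that over all cells. The log2 ratio of Hmox1 was 0.38 (0.02 to 0.73) in cluster 3, 1.05 (0.48 to 1.58) in cluster 4, which has only 35 pyrvinium cells, and 0.49 (0.26 to 0.72) in cluster 6. In thinned cells its share was 8.35% with DMSO and 7.14% with pyrvinium in cluster 3, 8.33% and 2.86% in cluster 4 and 20.6% and 23.3% in cluster 6, with wide overlapping intervals, so the shares do not show the order of the levels. Without cluster 1, Hmox1 was at 18.7 CPM in DMSO cells and 45.9 CPM in pyrvinium cells, 2.46-fold higher. Leaving out this cluster was chosen after the data were seen. The choice could only raise the ratio, since it removes the DMSO cluster with the highest Hmox1. Since Hmox1 helped to form the clusters, they were formed again without the 10 members. The cluster most like cluster 1 then held 314 DMSO and 2 pyrvinium cells with Hmox1 at 206 CPM in the DMSO cells, and without it the log2 ratio was 1.29.

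**Figure D3:**
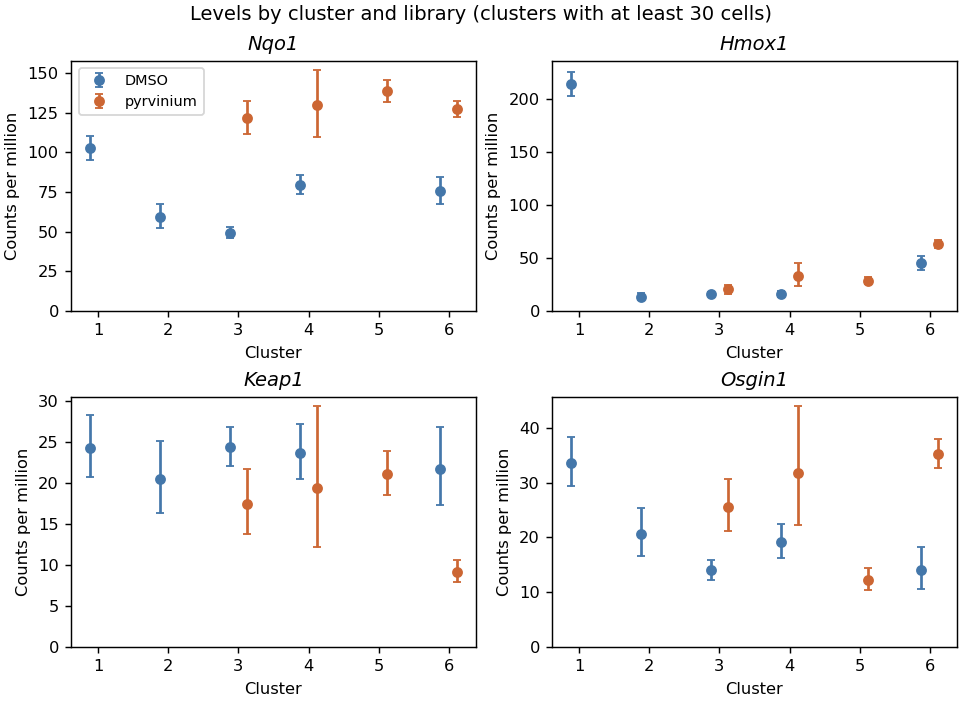
Levels of Nqo1, Hmox1, Keap1 and Osgin1 in CPM (vertical axes, from 0) in each cluster (horizontal axes) of the DMSO library (blue) and the pyrvinium library (orange) with 95% Poisson intervals, where at least 30 cells were present. Nqo1 lies between 122 and 139 CPM in every pyrvinium cluster shown; Hmox1 stands at 214 CPM in cluster 1 of the DMSO library; and in the Pyr library Keap1 is at 9.17 CPM in cluster 6 but 21.1 CPM in cluster 5, with Osgin1 the other way round.

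Nqo1 was higher with pyrvinium in each shared cluster. It was at 49.3 CPM in DMSO cells and 122 CPM in pyrvinium cells in cluster 3, at 79.5 and 129.7 in cluster 4 and at 75.5 and 127 in cluster 6, log2 ratios of 1.30 (1.15 to 1.46), 0.71 (0.44 to 0.97) and 0.75 (0.58 to 0.93). The DMSO level ranged from 49.3 CPM in cluster 3 to 102.7 CPM in cluster 1, and the pyrvinium level only from 122 to 139 CPM. The level in cluster 1, the highest of the DMSO library, lay below all 4 pyrvinium clusters, although its interval (95.2 to 110.6) overlapped that of the pyrvinium cells of cluster 4 (109.6 to 152).

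Keap1 and Osgin1 split the Pyr library. Keap1 was at 9.17 CPM (7.88 to 10.6) in cluster 6 and 21.1 CPM (18.6 to 23.9) in cluster 5, where it lay within the range of the 5 DMSO clusters (20.4 to 24.3 CPM). Its log2 ratio was -1.24 (-1.62 to -0.85) in cluster 6, -0.48 (-0.85 to -0.13) in cluster 3 and -0.28 (-0.99 to 0.35) in cluster 4. Osgin1 was at 35.2 CPM (32.7 to 38.0) in cluster 6 and 12.3 CPM (10.3 to 14.5) in cluster 5, with log2 ratios of 1.33 (0.93 to 1.75), 0.88 and 0.73 in clusters 6, 3 and 4. In the DMSO library it was at 33.7 CPM in cluster 1 and from 14.0 to 20.6 CPM in clusters 2, 3, 4 and 6. Its level in pyrvinium cluster 5 was thus below these DMSO levels, with intervals that overlapped those of clusters 3 and 6. In clusters formed without the members, the pyrvinium cells of the cluster with 437 of them had Keap1 at 9.03 CPM and Osgin1 at 35.5 CPM, and those of the cluster with 259 had 21.3 and 12.3 CPM. These clusters differ in many genes, and a difference between clusters of the same cells is a description here.

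Levels of the other members also differed between clusters. Abcc1 had log2 ratios of 0.89 (0.51 to 1.27) in cluster 3, 0.09 in cluster 4 and 0.23 in cluster 6, and within DMSO its level was highest in cluster 1 at 24.8 CPM. Txnrd1 ranged from 33.9 CPM in cluster 2 to 82.4 CPM in cluster 1 of the DMSO library and from 61.4 to 80.1 CPM over the pyrvinium clusters. Srxn1 ranged from 4.41 CPM in cluster 2 to 13.1 CPM in cluster 1 of the DMSO library. It was 1.5-fold or more higher with pyrvinium in cluster 3 (0.62) and lower in cluster 6 (-0.59), on levels between 6.02 and 9.94 CPM. Prdx1 stayed between 2037 and 2701 CPM in every cluster of either library, and Gsr between 45.5 and 84.7 CPM.

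Counted within clusters, 4 of 10 members were at least 1.5-fold higher in cluster 3 (Nqo1, Srxn1, Osgin1 and Abcc1; 9.52% of all tested genes there) and 0 were lower (15.3%). In cluster 4, 3 were higher (Nqo1, Hmox1 and Osgin1; 5.3%) and Nfe2l2 was lower (11.4%). In cluster 6, Nqo1 and Osgin1 were higher (6.78%) and Keap1 and Srxn1 were lower (21.9%). Without cluster 1, Nqo1, Hmox1, Osgin1 and Abcc1 were higher (4 of 10, against 8.78% of genes) and Keap1 was lower (17.3%). Leaving out cluster 1 was chosen after the data were seen and removes DMSO cells only. Among DMSO clusters of at least 30 cells it had the highest level of each of these 4 higher members. Their ratios could thus only rise, and this count is a description and no support. Nqo1 and Osgin1 were thus past the limit in each of the 3 shared clusters, Osgin1 without being past it over all cells.

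**Figure D4:**
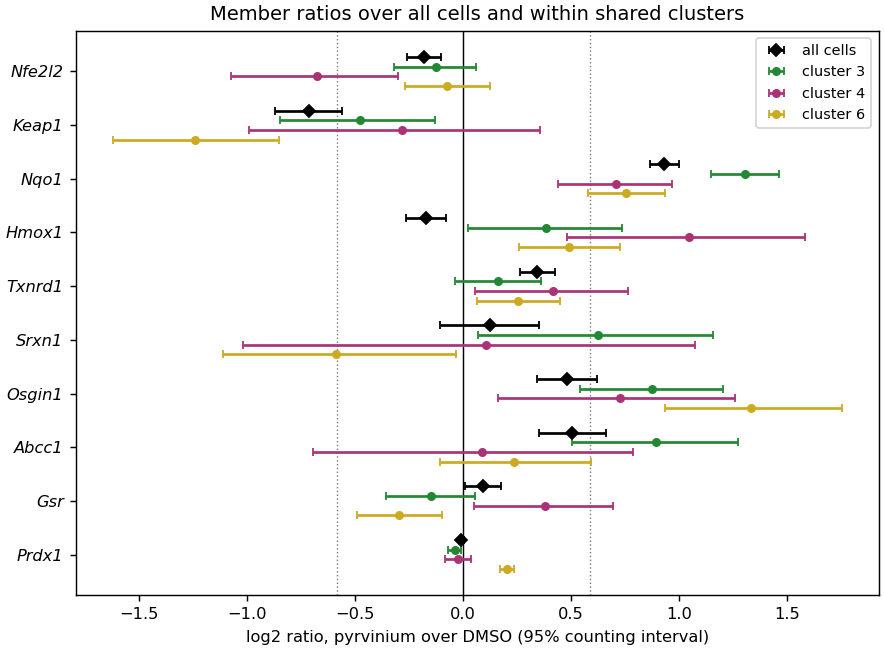
Log2 ratio of pyrvinium over DMSO for each member (vertical axis) over all cells (black diamonds) and within clusters 3, 4 and 6 (coloured points), with 95% counting intervals; dotted lines mark 1.5-fold. Nqo1 and Osgin1 lie right of 0 in all 4 comparisons, Keap1 lies left of 0, and Hmox1 lies left of 0 over all cells (-0.17) but right of 0 within each cluster.

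Cells were also ranked within each library by their summed thinned counts of 12 targets of ATF4, the transcription factor of the integrated stress response. Slc7a11 and Sesn2, which both programs are known to use, were left out. Nupr1 has by far the highest level of these targets (806 and 1309 CPM, next to 228 and 416 for Phgdh), so it weighs most in the sum. Low-ranked cells scored 0 to 3 for DMSO and 0 to 11 for Pyr, and high-ranked cells 6 to 180 and 18 to 104. Low-ranked pyrvinium cells thus overlap in score with high-ranked DMSO cells, and the ranks are not alike between libraries. Hmox1 followed this ranking in both libraries. In the 534 DMSO and 284 pyrvinium cells with the fewest ATF4 target counts it was at 22.8 CPM (17.5 to 29.3) in DMSO cells and 13.4 CPM (8.06 to 20.9) in pyrvinium cells, and in equal numbers of cells with the most at 136 CPM (122 to 151) and 78.9 CPM (64.9 to 94.9). Of the 534 DMSO cells with the most, 231 were in cluster 1, and without that cluster the Hmox1 levels were 17.0 and 38.9 CPM. Nqo1 went from 69.3 CPM (59.7 to 80.0) to 86.9 CPM (76.1 to 98.8) in DMSO cells and from 109.2 CPM (92.6 to 128) to 146 CPM (127 to 167) with pyrvinium, with overlapping intervals in each library. Without cluster 1 its DMSO levels were 68.2 and 60.1 CPM. The intervals of the low-ranked and high-ranked cells also overlapped in each library for Nfe2l2, Keap1, Srxn1, Osgin1, Abcc1, Txnrd1 and Gsr. For these genes and Nqo1, overlap does not show that the levels were equal, and the differences were not tested. Prdx1 was lower in the high-ranked cells, at 2399 and 2206 CPM in DMSO cells and 2458 and 2275 CPM with pyrvinium. The cells so ranked had like depths with DMSO (medians of 18485 and 18800 counts) but not with pyrvinium (28687 and 33610).

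By likeness of pattern over the 9 sums of a cluster in a library, the 3 genes most like Nqo1 among 4566 genes were Nfe2l1 (Pearson r = 0.98 of log2(CPM + 1)), Slc25a1 (0.96) and Creld1 (0.96). For Keap1 they were Dbnl (0.96), Gmppb (0.93) and Pkp3 (0.93), and for Abcc1 Atxn2l (0.96), Il1rn (0.96) and Capg (0.95). The points share libraries and depth, and with so many genes compared high values of r are a description only.

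The other parts of the KEAP1 and NRF2 machinery did not all follow Keap1. Of 12 partners and regulators, 3 were higher by 1.5-fold or more with pyrvinium, beside 7.57% of all tested genes, and 2 lower, beside 15.5%, with a median log2 ratio of -0.15. The share lower is near that of all genes. Cul3, the scaffold of the ligase that KEAP1 serves, was at 22.7 CPM in DMSO cells and 75.4 CPM in pyrvinium cells, 3.32-fold higher (log2 ratio 1.73, 1.62 to 1.84), and its log2 ratio was 1.70, 1.86 and 1.30 in clusters 3, 4 and 6. Sqstm1, which encodes the autophagy receptor p62 that draws KEAP1 away, was at 79.7 and 214 CPM, 2.68-fold higher, and had log2 ratios of 1.47, 1.30 and 1.69 in these clusters. Nfe2l1, the gene of the related factor NRF1, was at 19.7 and 38.9 CPM.

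Dpp3, whose protein binds KEAP1, was at 62.2 CPM in DMSO cells and 37.5 CPM in pyrvinium cells, 1.66-fold lower, and lower in each shared cluster (-0.67, -0.79 and -0.90). The small MAF gene Maff was at 20.4 and 11.7 CPM over all cells. Its log2 ratio was -0.74 in cluster 6 (26.5 and 15.8 CPM), but 0.07 in cluster 3 and -0.08 in cluster 4. Its difference was thus present in cluster 6 and not in clusters 3 and 4. In DMSO cells its level in clusters 3 and 4 lay below the 20.4 CPM of all cells. Clusters 1 and 2, with 302 and 218 DMSO cells but 0 and 6 pyrvinium cells, allow no such comparison. Their part in the Maff difference over all cells was not tested, so cluster 6 need not account for it. Mafg was at 13.9 and 11.7 CPM, Mafk at 14.5 and 11.0, and the repressor gene Bach1 at 6.38 and 5.67. These 3 stayed under 1.5-fold and were named for their role after the values were seen.

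Of 40 further genes listed as NRF2 targets, 13 were higher by 1.5-fold or more with pyrvinium, beside 7.57% of all tested genes, and 0 lower, beside 15.5%. Their median log2 ratio was 0.43, beside 0.11 for the members and -0.08 for all tested genes. This list, like the others here, was chosen with earlier results of these data known, so its share is no independent check. By role (groups drawn after the values were seen), 6 of 11 genes of glutathione transferases and Gpx2 were higher, 3 of 4 of iron and haem handling, 2 of 9 of quinone, aldehyde and conjugating enzymes, 1 of 4 of cystine uptake and glutathione synthesis, and Sqstm1, which is on the list of partners too. None of the 6 genes of NADPH supply and the 3 further export pumps was. In each of the 3 shared clusters, 12 of these 13 genes were at least 1.5-fold higher, and the exception was Ugdh, at 1.52-fold over all cells and under the limit in cluster 6. The clusters are parts of the cells in which the 13 were picked, so this recurrence is partly built in. The same share among all higher genes was not taken, so the count is a description only.

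Among the transferases, which attach glutathione to reactive chemicals, Gsta2 was at 28.6 CPM in DMSO cells and 76.6 CPM in pyrvinium cells, 2.68-fold higher, and Gstm3 at 24.2 and 64.3 CPM, 2.66-fold higher. Gsta1, Gsta3, Gstm1 and Gstp1 had log2 ratios of 0.66, 1.09, 0.98 and 0.97. These families hold near-identical copies, so reads could be divided between them, and the split between Gsta1 and Gsta2 or among the Gstm genes is uncertain. Ugt1a6a, at 4.83 and 10.6 CPM, shares its 3' exons with the other Ugt1a genes and is uncertain for the same reason.

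The ferritin genes Fth1 and Ftl1, whose proteins store iron, were at 1825 and 3047 CPM and at 3655 and 5956 CPM, 1.67-fold and 1.63-fold higher, and Blvrb, a biliverdin reductase gene, was at 73.6 and 131 CPM, 1.78-fold higher. These 3, Ugdh and the transferases given by ratio alone were chosen for naming after their values were seen, and ferritin genes have processed copies that could share reads. Of the glutathione synthesis genes, the cystine transporter gene Slc7a11, which is also an ATF4 target, was at 25.2 and 102.7 CPM, whereas the catalytic subunit gene Gclc was at 33.7 and 45.2 CPM and the modifier subunit gene Gclm at 1019 and 1027 CPM. Of 14 ATF4 targets, 12 were higher, beside 7.57% of all tested genes, and 0 lower, beside 15.5%, with a median log2 ratio of 1.22, and only Slc7a11 and Sesn2 stand on both lists. Ddit3, the stress-induced transcription factor CHOP, was 7.96-fold higher.

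**Figure D5:**
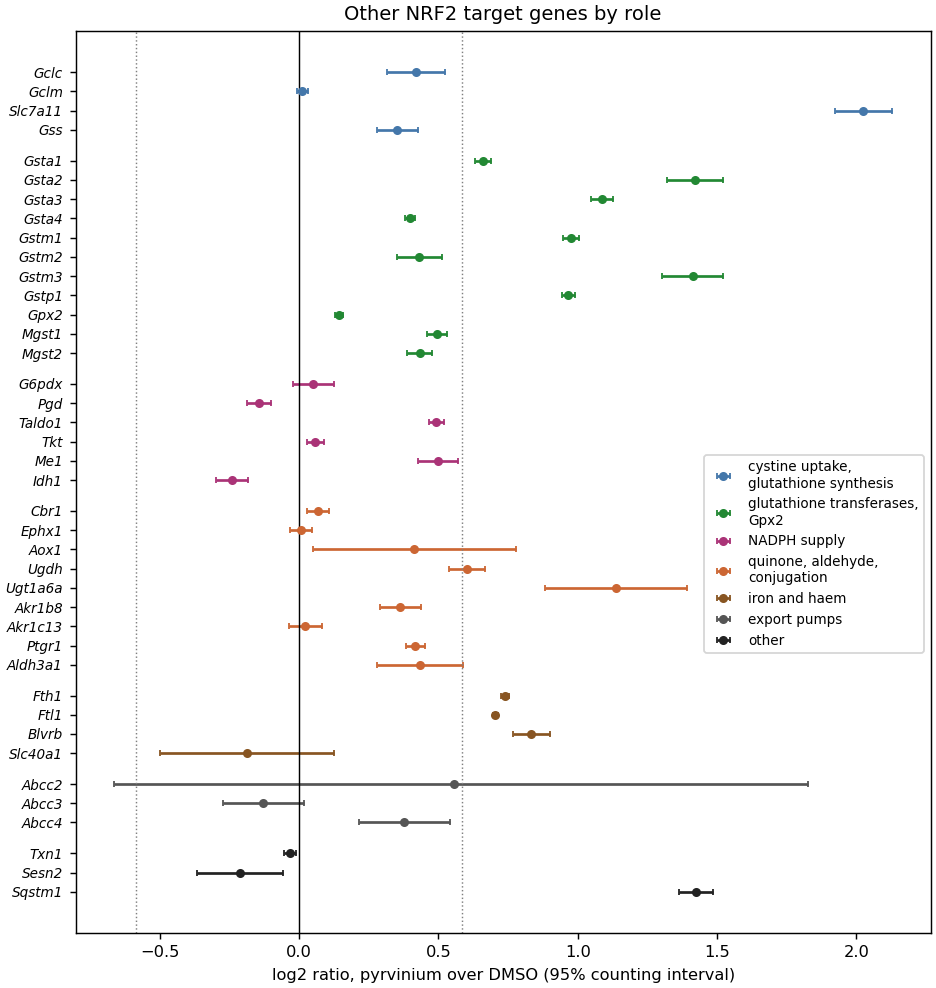
Log2 ratio of pyrvinium over DMSO (horizontal axis) for 40 further NRF2 target genes (vertical axis), coloured by role, with 95% counting intervals; dotted lines mark 1.5-fold. Slc7a11 (2.03), Sqstm1, Gsta2 and Gstm3 lie farthest to the right, no gene lies beyond the limit on the left, and Abcc2 has a wide interval because it had few counts.

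Of 18 further enzymes and carriers that handle peroxide, superoxide and thiols, 0 were higher by 1.5-fold or more, beside 7.57% of all tested genes, and 1 lower, beside 15.5%, with a median log2 ratio of 0.08. Of these, Txn1 is also on the list of 40 targets. The one lower was Prdx4, the peroxiredoxin of the endoplasmic reticulum, at 82.9 CPM in DMSO cells and 40.9 CPM in pyrvinium cells, 2.03-fold lower. It was lower in each shared cluster (-0.58, -0.54 and -0.65). The lipid peroxidase gene Gpx4 was at 906 and 1323 CPM, Prdx5 at 349 and 503, the catalase gene Cat at 27.8 and 40.0 and the biliverdin reductase gene Blvra at 41.3 and 29.3, each just under the limit. With either other scaling Gpx4, Prdx5 and Cat passed it, and 3 of the 18 were then higher.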

How the data were processed

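Single cells of 2 organoid libraries, 1 per treatment, were captured and sequenced with the PIPseq T2 kit of Fluent BioSciences, per the labels' protocols. The submitters' processing notes name Partek and the build GRCm39; the sources used here do not give the aligner, counting tool, annotation or barcode filter. The deposited matrices hold raw whole-number counts per gene and barcode, not normalized, with 331629 barcodes for DMSO and 353485 for Pyr. Strand use and any collapse of duplicates are not stated.

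A barcode was kept as a cell at 1/10 of the 99th percentile of its library's top 2000 barcodes, with at least 500 genes and at most 20% mitochondrial counts. Doublets were kept. Counts were summed per library and scaled to CPM, with Poisson intervals for levels, conditional binomial intervals for ratios (computation tested on simulated data) and Clopper-Pearson intervals for shares, all at 95%. Cells were clustered with scanpy 1.11.5 on 2000 variable genes z-scored within each library (30 components, 15 neighbours, Leiden resolution 0.5). Clusters are called by number. Genes were named from each list as up to 5 with the largest absolute log2 ratio, among those reaching 10 CPM in either library, with Gclc, Gclm and Slc7a11 added; exceptions are stated. Patterns were compared for Nqo1 and the 3 members of largest absolute ratio, among genes reaching 20 CPM. The members and lists were chosen with earlier results of these data known. Promoter letters are from RefSeq on GRCm38 and were matched by symbol, and no coordinate was moved between builds. Part of the genotype that both groups share and a leading gene of cluster 1 are not reported here.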

Additional observations from a re-analysis of the deposited data

How the results depend on the processing

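Each ratio was recomputed under 15 settings for cell threshold, depth range, scaling, doublets, free RNA and cell makeup, of which those without cluster 1, or without its like when the members were left out of clustering, were chosen after seeing the data. Nqo1 was higher (log2 ratio 0.71 to 1.30) and Keap1 lower (-1.24 to -0.28) in all 15, Keap1 by less than 1.5-fold within clusters 3 and 4. Hmox1 ranged from -0.31 (mean over cells) to 1.30 (without cluster 1). The number of members at least 1.5-fold higher, 1 of 10, became 2 with either other scaling, after taking off the ambient profile of barcodes of 10 to 100 counts and within cluster 6, 3 with equal cluster weights and within cluster 4, and 4 within cluster 3 and in both settings without cluster 1; at a 2-fold limit it was 0. The number lower, 1 of 10, became 0 within cluster 3 and at the 2-fold limit and 2 within cluster 6. Of the 40 other targets, 13 higher became 22 within cluster 3 (of 39 measured there and in clusters 4 and 6) and 6 at the 2-fold limit, and 0 lower became 2 with equal cluster weights (Slc40a1 and Abcc2) and 1 within clusters 4 (Idh1) and 6 (Slc40a1). Equal weights and the mean over cells have no interval, so only the fold was used. The cause of these moves was not tested. Counts over all genes were taken only for the main setting, the other scalings, clusters 3, 4 and 6 and without cluster 1. Under the remaining settings, the 2-fold limit among them, the moves have no share over all genes beside them. The other scalings moved the median of all genes by 0.08 and 0.09, and the split of all genes from 1180 higher and 2416 lower to 1535 and 1969 (without mitochondrial and ribosomal protein genes) and 1558 and 1952 (median of ratios). No paired analysis was possible because each group has 1 library. Depth limits Srxn1, with 316 and 319 counts, and cluster 4, with 35 pyrvinium cells.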
